A study of Daphnia magna with 27 samples.

Results

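Of the 2261 reporters on an array of spotted cDNA fragments of the water flea Daphnia magna, 3 carry names of chromatin proteins. They are histone deacetylase (EBT_DamaRep_ASP1 E2), chromobox (EBT_DamaRep_ASP5 D1) and nucleosome assembly (EBT_DamaRep_ASP1 C1). They were taken by name, whatever their values, and each had a value in all 4 tables of comparisons that the authors deposited. The names give only the family, so which gene of a family was spotted is not known here.

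DNA in animal cells is wound around histone proteins to form nucleosomes. Histone deacetylases remove acetyl groups from histone tails, which in general goes with tighter chromatin and less transcription. Chromobox proteins carry a chromodomain, with which many of them bind methylated histone tails, and they include heterochromatin and Polycomb proteins. Nucleosome assembly proteins are histone chaperones that help to load histones onto DNA, among other times when DNA is copied. These roles are known from other animals, such as the fruit fly and mammals. The title of the series names effects of zinc exposure history that may pass between generations through chromatin or DNA marks.

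All daphnids belonged to clone K6 and grew in modified M4 medium, either as it is or with zinc raised to 388 µg/L. ZnF0 were moved into zinc as neonates from the laboratory culture, while CtrlF0, from the same neonates, went into control medium. Young of ZnF0 stayed in zinc, Zn(+)F1, or went back to control medium, Zn(-)F1, after a few hours of life in zinc. CtrlF1 were young of CtrlF0. Young of Zn(+)F1 stayed in zinc, Zn(+)F2, or went to control medium, Zn(+/-)F2. Zn(-/-)F2 were young of Zn(-)F1 in control medium, and CtrlF2 were young of CtrlF1. Each group had 3 samples, each a pool of 10 whole adults collected at the start of the following generation. Age was 23 days in ZnF0 against 20 days in CtrlF0, and 21 days in Zn(+)F1 and Zn(-)F1 against 22 days in CtrlF1. In the F2 it was 21 days in Zn(+)F2 and 22 days in Zn(+/-)F2 and Zn(-/-)F2, against 20 days in CtrlF2. Zinc history and age therefore cannot be told apart, nor can generation and age where CtrlF1 is compared with CtrlF0 or CtrlF2. The samples are whole bodies of 1 clone, in which fewer cells of a type and less RNA per cell cannot be told apart.

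Every sample was set against 1 pool of RNA from 60 daphnids each of 6, 13 and 21 days of age, grown in enriched tap water. The values per sample are log2 ratios of the sample over this pool, so 0 is the level of the pool on an array's own scale. Samples of ZnF0, CtrlF0 and CtrlF1 carried the dye Cy5, and those of Zn(+)F1 and Zn(-)F1 carried Cy3. Zn(+)F2 and Zn(+/-)F2 had 2 samples in Cy5 and 1 in Cy3, and Zn(-/-)F2 and CtrlF2 had 1 in Cy5 and 2 in Cy3.

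Some arrays stood apart. The 6 arrays of Zn(+)F2 and CtrlF2 were not centred, with median log2 ratios between 0.31 and 0.35 where the sample was in Cy5 and between -0.40 and -0.31 where it was in Cy3, so each array was centred on its median. CtrlF0 replicates 1 and 3 held equal values for 2065 of 2066 reporters, with a gap of 0.00026 in the remaining one. They were counted as 1 sample, which leaves n = 2 for CtrlF0. Zn(+)F1 replicate 2 correlated with the other Zn(+)F1 arrays at r = -0.099 and -0.020, where those correlated at r = 0.84. It was kept in the limma fit described below. It had values for 886 reporters, where the other arrays had between 2066 and 2254, and none of these were chromatin reporters. The 3 reporters were thus measured in 25 samples.

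In the F0, nucleosome assembly was lower in ZnF0 than in CtrlF0 in the authors' deposited table. It stood at -0.13, -0.18 and -0.31 in ZnF0 samples, against 0.24 and 0.20 in CtrlF0. All ZnF0 samples lay below both CtrlF0 samples, as was so for 24.9% of 1985 reporters. That table gives a fall of 0.38 ± 0.076 on the log2 scale (SE of the authors' deposited table), which is 1.30-fold lower, with limma adjusted p = 0.00068. In a limma fit on the values per sample, described after the deposited tables, it did not pass (adjusted p = 0.0615). In the authors' deposited table it was the 1 chromatin reporter of 3 called, where 33.2% of 2220 reporters were called and 16.4% as lower. Its absolute change exceeded that of 65.0% of reporters. In the same authors' deposited table the yolk reporter vtg precursor was higher by 0.67 ± 0.087 (limma adjusted p = 4.67e-06), 1 of 3 vtg reporters called. The others, both named vtg, stood at 0.27 ± 0.14 (EBT_DamaRep_ASP1 F6) and 0.14 ± 0.36 (EBT_DamaRep_ASP1 G1). In the fit on the values per sample vtg precursor did not pass either, at 0.49 ± 0.20 (limma adjusted p = 0.122). The part of yolk in the chromatin result was not tested.

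The authors' deposited table also called the reporter lower in CtrlF1 than in CtrlF0, a call that did not hold in the fit on the values per sample (limma adjusted p = 0.441) or at a threshold of 0.01. CtrlF1 samples stood at 0.17, -0.023 and -0.21, against 0.24 and 0.20 in CtrlF0. CtrlF1 were 22 days old and CtrlF0 20 days. These groups did not overlap, as for 19.5% of 1987 reporters in that direction, though CtrlF1 replicate 1 lay close to CtrlF0. The change in the authors' deposited table of that comparison was -0.28 ± 0.087 (limma adjusted p = 0.0245), 1 of 3 chromatin reporters called where 25% of 2226 reporters were called and 12.9% as lower. The vtg reporter EBT_DamaRep_ASP1 F6 was also called lower there, at -0.45 ± 0.13 (limma adjusted p = 0.0107). Vtg precursor stood at 0.032 ± 0.10 and EBT_DamaRep_ASP1 G1 at 0.20 ± 0.25. In the fit on the values per sample EBT_DamaRep_ASP1 F6 did not pass (-0.23 ± 0.18, limma adjusted p = 0.642).

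In the F2 controls nucleosome assembly stood at -0.059, 0.15 and -0.066, below both CtrlF0 samples, as for 20.9% of 1991 reporters. The authors' deposited table gives -0.16 ± 0.088 for CtrlF2 vs CtrlF0 (95% interval -0.34 to 0.030), which did not pass (limma adjusted p = 0.294). There 0 of 3 chromatin reporters were called, beside 12.5% of 2234 reporters. The zinc table and these tables share the CtrlF0 samples. The remaining deposited comparison runs as CtrlF1 over CtrlF2, and for it the authors' deposited table gives -0.17 ± 0.092 (limma adjusted p = 0.197). Again 0 of 3 were called, beside 30.8% of 2245 reporters. Of the 3 vtg reporters 0 were called in the deposited comparisons with CtrlF2.

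**Figure D1:**
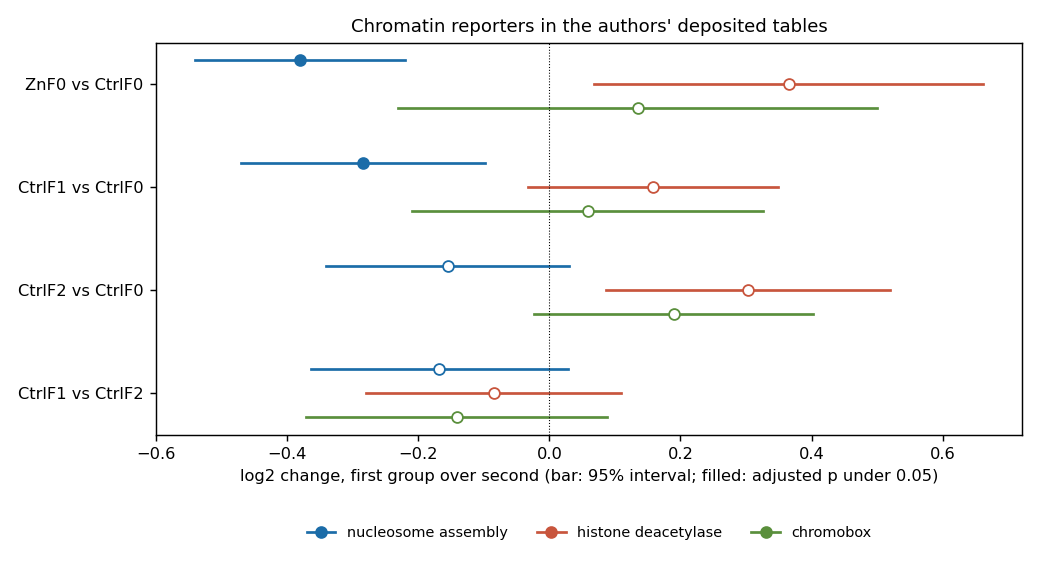
Log2 change (horizontal axis) of the 3 chromatin reporters in the authors' 4 deposited tables, first group over second, with 95% intervals from the deposited t and p-value. Filled points have a deposited adjusted p under 0.05: nucleosome assembly in ZnF0 vs CtrlF0 (-0.38) and in CtrlF1 vs CtrlF0 (-0.28).

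Histone deacetylase, the eraser of acetyl marks, lay above CtrlF0 in each deposited table that holds CtrlF0 and was called in none. Its samples stood at -0.098, -0.12 and 0.60 in ZnF0, against -0.23 and -0.065 in CtrlF0. ZnF0 replicate 3 was high, and the other ZnF0 samples lay within the range of CtrlF0. The authors' deposited table of this comparison gives 0.36 ± 0.14 (95% interval 0.068 to 0.66; limma adjusted p = 0.0547). In the fit on the values per sample histone deacetylase stood at 0.27 ± 0.44 (95% interval -0.64 to 1.19, limma adjusted p = 0.817). Without ZnF0 replicate 3 the fitted change was 0.038.

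Between control generations, histone deacetylase stood at 0.026, -0.029 and 0.18 in CtrlF2 and at -0.090, -0.061 and -0.069 in CtrlF1. CtrlF2 lay above both CtrlF0 samples, as for 14.0% of 1991 reporters. CtrlF1 lay below all of CtrlF2, as for 18.2% of 2173 reporters. For CtrlF2 vs CtrlF0 the authors' deposited table gives 0.30 ± 0.10 (limma adjusted p = 0.0632), and for CtrlF1 vs CtrlF0 their deposited table gives 0.16 ± 0.091 (limma adjusted p = 0.251). For CtrlF1 over CtrlF2 the authors' deposited table gives -0.085 ± 0.092 (limma adjusted p = 0.548).

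Chromobox, the reader of methyl marks, was called in none of the deposited tables either. Its samples stood at -0.047, -0.20 and 0.38 in ZnF0, against -0.19 and -0.042 in CtrlF0. As for histone deacetylase, ZnF0 replicate 3 was the high sample. The authors' deposited table of ZnF0 vs CtrlF0 gives 0.13 ± 0.17 (95% interval -0.23 to 0.50; limma adjusted p = 0.624). In the fit on the values per sample chromobox stood at 0.16 ± 0.18 there (limma adjusted p = 0.694). CtrlF2 samples, at 0.032, 0.19 and 0.039, lay above both CtrlF0 samples, as for 14.0% of 1991 reporters, and the authors' deposited table gives 0.19 ± 0.10 (limma adjusted p = 0.260). The authors' deposited tables give 0.058 ± 0.13 for CtrlF1 vs CtrlF0 (limma adjusted p = 0.818) and -0.14 ± 0.11 for CtrlF1 over CtrlF2 (limma adjusted p = 0.368).

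The reporters were of middling to high brightness. In the authors' deposited zinc table the average log2 expression was 8.76 for nucleosome assembly, 8.18 for histone deacetylase and 7.69 for chromobox, above 70.9%, 63.1% and 55.5% of reporters. The median change of the 3 reporters there was 0.13 and the median absolute change 0.36, beside 0.024 and 0.25 over all reporters. With 1 reporter below 0 and the others above, the 3 did not share a direction.

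Degrees of freedom recovered from the t and p-value of the chromatin reporters lay between 15.2 and 18.9 in the authors' deposited tables. They include the part that limma borrows from all reporters, and how many values of a sample entered is not known here. In CtrlF1 vs CtrlF0 they were 18.2 for histone deacetylase, 17.2 for chromobox and 15.2 for nucleosome assembly. These 3 reporters have values on the same arrays, so 1 value per array would give equal degrees of freedom. Spread between spots within an array may therefore enter the deposited p-values. The reporters were also fitted with limma on the value table, sample by sample, with 26 samples and a term for dye. In this fit nucleosome assembly stood at -0.42 ± 0.14 in ZnF0 vs CtrlF0 and did not pass (limma adjusted p = 0.0615), where 12.1% of 1985 reporters were called. With CtrlF0 replicates 1 and 3 as separate samples it passed, at -0.43 ± 0.12 (limma adjusted p = 0.0181). That setting counts equal values as if they were independent, so its p-value is not a sound one. Whether both entered the authors' fits, and so the deposited calls against CtrlF0, is not known here.

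Between the control generations the fit called none of the 3 reporters. Nucleosome assembly stood at -0.24 ± 0.14 in CtrlF1 vs CtrlF0 (limma adjusted p = 0.441), where 3.98% of 1987 reporters were called. It stood at -0.21 ± 0.16 in CtrlF2 vs CtrlF0 (limma adjusted p = 0.465), where 2.51% of 1991 were called, and at -0.026 ± 0.14 for CtrlF1 over CtrlF2 (limma adjusted p = 0.920), where 18.0% of 2173 were called. Histone deacetylase stood at 0.073 ± 0.44 in CtrlF1 vs CtrlF0 (limma adjusted p = 0.991) and 0.58 ± 0.48 in CtrlF2 vs CtrlF0 (limma adjusted p = 0.524). For CtrlF1 over CtrlF2 it stood at -0.51 ± 0.44 (limma adjusted p = 0.465). Without the dye term its values with CtrlF2 were 0.21 and -0.13. Chromobox stood at 0.10 ± 0.18, 0.24 ± 0.19 and -0.13 ± 0.18 in the same order (lowest limma adjusted p = 0.524).

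**Figure D2:**
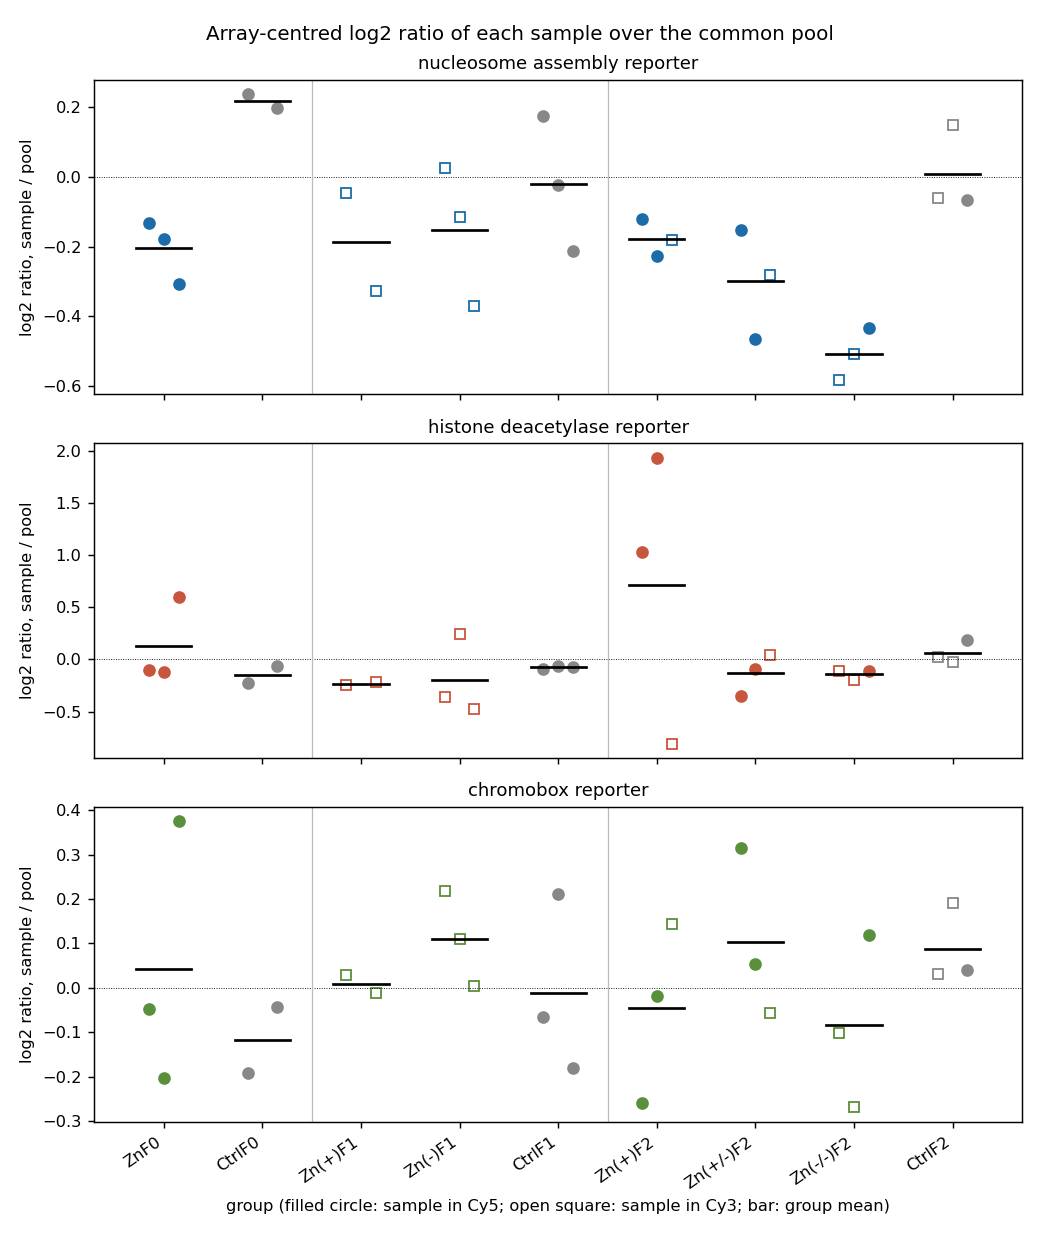
Log2 ratio over the common pool, centred per array (vertical axes), of nucleosome assembly, histone deacetylase and chromobox in each of 25 samples, by group, with the zinc-history groups left of the control of their generation. Filled circles are samples in Cy5, open squares samples in Cy3 and bars group means. The 3 Zn(-/-)F2 samples of nucleosome assembly, at -0.58, -0.51 and -0.43, lie below all CtrlF2 samples.

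Across all groups nucleosome assembly was lowest in Zn(-/-)F2, which lived in control medium throughout, after parents that met zinc for their first hours and grandparents that lived in it. Its samples stood at -0.58, -0.51 and -0.43 in Zn(-/-)F2, against -0.059, 0.15 and -0.066 in CtrlF2. All Zn(-/-)F2 samples lay below all CtrlF2 samples, as for 20.2% of 2185 reporters. The change was -0.52 ± 0.13 (SE; 95% interval -0.78 to -0.25), 1.43-fold lower, with limma adjusted p = 0.00944. This was the 1 call among 27 tests of the chromatin reporters, 3 in each of 9 comparisons. An unadjusted p under 0.05 came up in 3 of 9 comparisons for nucleosome assembly and in 0 of 9 for each of the other reporters. Of all reporters in this comparison 17.9% were called, 10.8% as lower, and 73.5% had a smaller absolute change. Within Cy3 the mean was -0.55 in Zn(-/-)F2 and 0.045 in CtrlF2. Within Cy5 the single sample was -0.43 in Zn(-/-)F2 and -0.066 in CtrlF2, so the direction was the same in both dyes.

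The call was lost in a fit of these 2 groups alone (limma adjusted p = 0.0679), with arrays not centred (-0.41, limma adjusted p = 0.133) and without Zn(-/-)F2 replicate 1 (-0.47, limma adjusted p = 0.0550). It held in 10 of 13 alternatives. Reporters of egg yolk were lower in the same comparison. Of 3 reporters named vtg, the usual short form of the yolk protein precursor vitellogenin, 2 fell. Vtg precursor fell by 1.29 ± 0.18 (limma adjusted p = 7.45e-05), and a reporter named vtg, EBT_DamaRep_ASP1 F6, dropped by 1.14 ± 0.16 (limma adjusted p = 0.000109). The other, EBT_DamaRep_ASP1 G1, stood at -0.31 ± 0.14 (limma adjusted p = 0.146). Of 3 ribosomal reporters tested 1 fell, rib 40S by 0.93 ± 0.27 (limma adjusted p = 0.0246), while rib 16S stood at 0.43 ± 0.24 (limma adjusted p = 0.232) and rib l17 at 0.19 ± 0.35 (limma adjusted p = 0.789). The blood cell reporter peroxinectin stood at -0.39 ± 0.23 (limma adjusted p = 0.268). The part of yolk, age or reproductive state in the nucleosome assembly result was not tested.

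**Figure D3:**
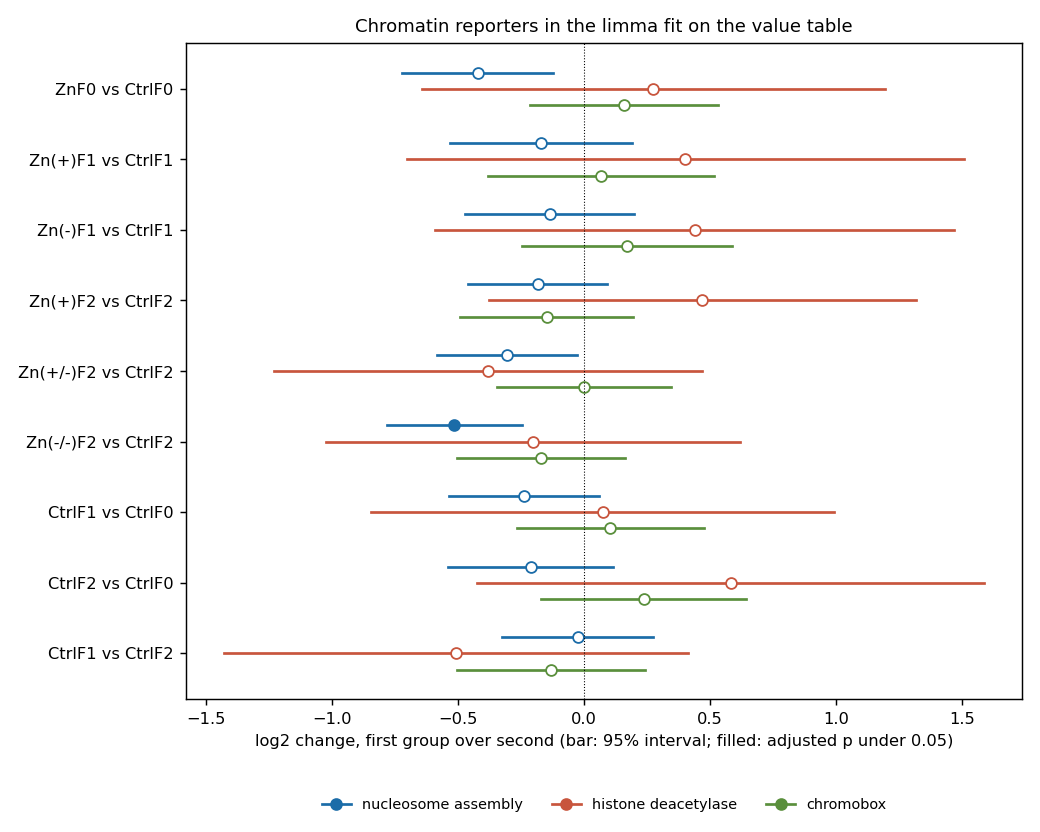
Log2 change (horizontal axis) of the 3 chromatin reporters in 9 comparisons of the limma fit on the value table, first group over second, with 95% intervals. The filled point, with an adjusted p under 0.05, is nucleosome assembly in Zn(-/-)F2 vs CtrlF2 (-0.52), and the intervals of histone deacetylase are the widest of the 3.

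In the other F2 groups nucleosome assembly lay below CtrlF2 without passing. Zn(+/-)F2, whose parents lived in zinc, had samples at -0.46, -0.15 and -0.28, against -0.059, 0.15 and -0.066 in CtrlF2. The groups did not overlap, as for 9.89% of 2183 reporters. The change was -0.31 ± 0.13 (limma unadjusted p = 0.0321, adjusted p = 0.217), where 2.93% of reporters were called. Zn(+)F2, kept in zinc for 3 generations, had samples at -0.12, -0.23 and -0.18, again below all of CtrlF2, as for 8.31% of 2177 reporters. The change was -0.18 ± 0.13 (limma adjusted p = 0.434), where 5.79% were called. These comparisons share the CtrlF2 samples.

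In the F1 the groups overlapped in nucleosome assembly. Nucleosome assembly stood at -0.046 and -0.33 in Zn(+)F1 and at 0.024, -0.12 and -0.37 in Zn(-)F1, against 0.17, -0.023 and -0.21 in CtrlF1. The change was -0.17 ± 0.17 for Zn(+)F1 (limma adjusted p = 0.577), where 9.16% of 2150 reporters were called, and -0.14 ± 0.16 for Zn(-)F1 (limma adjusted p = 0.638), where 10.4% of 2171 were called. Zinc-history and control samples were in opposite dyes here, and no deposited table bears on the direction of these Cy3 arrays. Across reporters, the Zn(+)F1 arrays other than replicate 2 correlated with CtrlF1 arrays at r between -0.46 and -0.24. The Zn(-)F1 arrays did so at r between -0.45 and -0.030. With CtrlF2 arrays the same Zn(+)F1 arrays correlated at r between 0.33 and 0.52, and the Zn(-)F1 arrays at r between 0.43 and 0.56. CtrlF1 arrays and the Cy5 array of CtrlF2, replicate 3, correlated at r between -0.28 and -0.11. With the sign of the Zn(+)F1 and Zn(-)F1 arrays turned, the changes of nucleosome assembly were 0.20 and 0.17, and with arrays not centred 0.16 and 0.21, so they have no settled direction.

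Ordered by mean, nucleosome assembly was lowest in Zn(-/-)F2, at -0.51 ± 0.075 (SD, n = 3), followed by Zn(+/-)F2 at -0.30 ± 0.16 and ZnF0 at -0.20 ± 0.091. Zn(+)F1 stood at -0.19 ± 0.20 (n = 2), Zn(+)F2 at -0.18 ± 0.052 and Zn(-)F1 at -0.15 ± 0.20. The control groups came last, with CtrlF1 at -0.021 ± 0.19, CtrlF2 at 0.0082 ± 0.12 and CtrlF0 at 0.22 ± 0.029 (n = 2). The gap between neighbours exceeded the larger SD of the pair at both ends, 0.21 above Zn(-/-)F2 and 0.21 below CtrlF0. The groups between did not differ from their neighbours beyond their spread. With the sign of the F1 zinc-history arrays turned, Zn(-)F1 at 0.15 and Zn(+)F1 at 0.19 lie above CtrlF1 and CtrlF2 and next to CtrlF0, and the gap below CtrlF0 is 0.031, within the spread. The place of Zn(-/-)F2 and its gap are the same either way. Within groups this reporter was steady, with a pooled SD of 0.14 beside a median of 0.27 over 2221 reporters.

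Histone deacetylase was the least steady of the 3 reporters, with its widest spread in Zn(+)F2. Its samples there stood at 1.03 and 1.93 in Cy5 and at -0.81 in Cy3, against 0.18 in Cy5 and 0.026 and -0.029 in Cy3 in CtrlF2. The gap between dyes, Cy5 minus Cy3, was 2.29 in Zn(+)F2, larger than for 91.0% of 2243 reporters. It was -0.26 in Zn(+/-)F2, 0.042 in Zn(-/-)F2 and 0.18 in CtrlF2. Across all reporters the Zn(+)F2 arrays correlated weakly, at r = 0.31 within Cy5 and at r = 0.030 and -0.13 between dyes. The change of histone deacetylase in Zn(+)F2 vs CtrlF2 was 0.47 ± 0.40 (limma adjusted p = 0.535). Without Zn(+)F2 replicate 3, the Cy3 sample, it was 1.43 (limma adjusted p = 0.0048), and without replicate 2 it was -0.010, so the value rests on single arrays.

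In the other F2 groups histone deacetylase did not pass. The reporter stood at -0.090, -0.35 and 0.039 in Zn(+/-)F2 and at -0.11, -0.20 and -0.11 in Zn(-/-)F2. Zn(-/-)F2 lay below all CtrlF2 samples, as for 20.2% of reporters. The changes were -0.38 ± 0.40 in Zn(+/-)F2 (limma adjusted p = 0.658) and -0.20 ± 0.39 in Zn(-/-)F2 (limma adjusted p = 0.791). Sample means were -0.13 in Zn(+/-)F2, -0.14 in Zn(-/-)F2 and 0.060 in CtrlF2. The fit shares its dye term and spread among all groups, so the gap between dyes in Zn(+)F2 enters both SEs. It also enters the change in Zn(+/-)F2, whose dyes are not balanced as in CtrlF2.

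In the F1 the fitted changes of histone deacetylase and its samples as given pointed opposite ways. Its samples stood at -0.25 and -0.22 in Zn(+)F1 and at -0.36, 0.24 and -0.47 in Zn(-)F1, against -0.090, -0.061 and -0.069 in CtrlF1. As given, the Zn(+)F1 samples lay below all CtrlF1 samples, as for 22.1% of 2150 reporters. The fitted changes were 0.40 ± 0.52 for Zn(+)F1 (limma adjusted p = 0.682) and 0.44 ± 0.49 for Zn(-)F1 (limma adjusted p = 0.621). Zinc-history and control samples were in opposite dyes, so the dye term, which is shared with Zn(+)F2, enters these changes. They were -0.16 and -0.12 without the dye term, and -0.17 and -0.14 without the Zn(+)F2 arrays and Zn(+)F1 replicate 2. With the sign of the Zn(+)F1 and Zn(-)F1 arrays turned they were 0.87 (limma adjusted p = 0.330) and 0.83 (limma adjusted p = 0.316), so the direction in the F1 is not settled.

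The mean of histone deacetylase ran from -0.23 ± 0.020 in Zn(+)F1 (SD, n = 2) to 0.13 ± 0.41 in ZnF0 and 0.72 ± 1.4 in Zn(+)F2 (n = 3 each). Of the neighbours in that order, CtrlF1 at -0.073 ± 0.015 and CtrlF2 at 0.060 ± 0.11 were the pair whose gap, 0.13, exceeded the larger SD. With the F1 signs turned Zn(+)F1 is at 0.23 and Zn(-)F1 at 0.20, next below Zn(+)F2, and CtrlF0 is lowest at -0.15. The pooled SD within groups was 0.54, larger than for 83.1% of reporters.

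Chromobox was steady across the study. Its samples stood at -0.26, -0.019 and 0.14 in Zn(+)F2, at 0.053, 0.31 and -0.058 in Zn(+/-)F2 and at -0.10, -0.27 and 0.12 in Zn(-/-)F2, against 0.032, 0.19 and 0.039 in CtrlF2. The groups overlapped. Against CtrlF2 the change was -0.15 ± 0.16 in Zn(+)F2 (limma adjusted p = 0.641), 0.00021 ± 0.16 in Zn(+/-)F2 (limma adjusted p = 1.00) and -0.17 ± 0.16 in Zn(-/-)F2 (limma adjusted p = 0.509). In the F1 its samples stood at 0.028 and -0.013 in Zn(+)F1 and at 0.22, 0.11 and 0.0048 in Zn(-)F1, against -0.066, 0.21 and -0.18 in CtrlF1. These groups overlapped too, and the changes were 0.068 ± 0.21 in Zn(+)F1 (limma adjusted p = 0.873) and 0.17 ± 0.20 in Zn(-)F1 (limma adjusted p = 0.637). With the F1 signs turned they were 0.053 and -0.050.

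Group means of chromobox lay between -0.12 ± 0.11 in CtrlF0 (SD, n = 2) and 0.11 ± 0.11 in Zn(-)F1 (n = 3), and no neighbours in that order differed beyond their spread. With the F1 signs turned Zn(-)F1 is at -0.11, next to CtrlF0, Zn(+/-)F2 is highest at 0.10, and again no neighbours differ beyond their spread. Its SD over the 25 samples was 0.17, and 5.81% of 2221 reporters had a smaller one. The 95% interval in Zn(-/-)F2 vs CtrlF2 ran from -0.50 to 0.16, so a fall as large as that of nucleosome assembly lies just outside it.

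Whether the change in zinc differed between generations was tested as a difference of differences between ZnF0, Zn(+)F1 and Zn(+)F2, each set against its own control. Of 9 such tests of the chromatin reporters 0 passed in limma (lowest adjusted p = 0.510), and 0 had an unadjusted p under 0.05 (lowest 0.218). Of all reporters 16.9% passed for Zn(+)F1 minus ZnF0, 1.32% for Zn(+)F2 minus ZnF0 and 4.12% for Zn(+)F2 minus Zn(+)F1. For nucleosome assembly the change in Zn(+)F2 minus that in ZnF0 was 0.24 (95% interval -0.17 to 0.65), so these changes were shown neither to differ nor to be alike. With the F1 signs turned its change in Zn(+)F1 minus that in ZnF0 was 0.63 (limma adjusted p = 0.0716), beside 0.25 as given (limma adjusted p = 0.510). The difference between Zn(-/-)F2 and the other zinc-history groups was not tested.

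**Figure D4:**
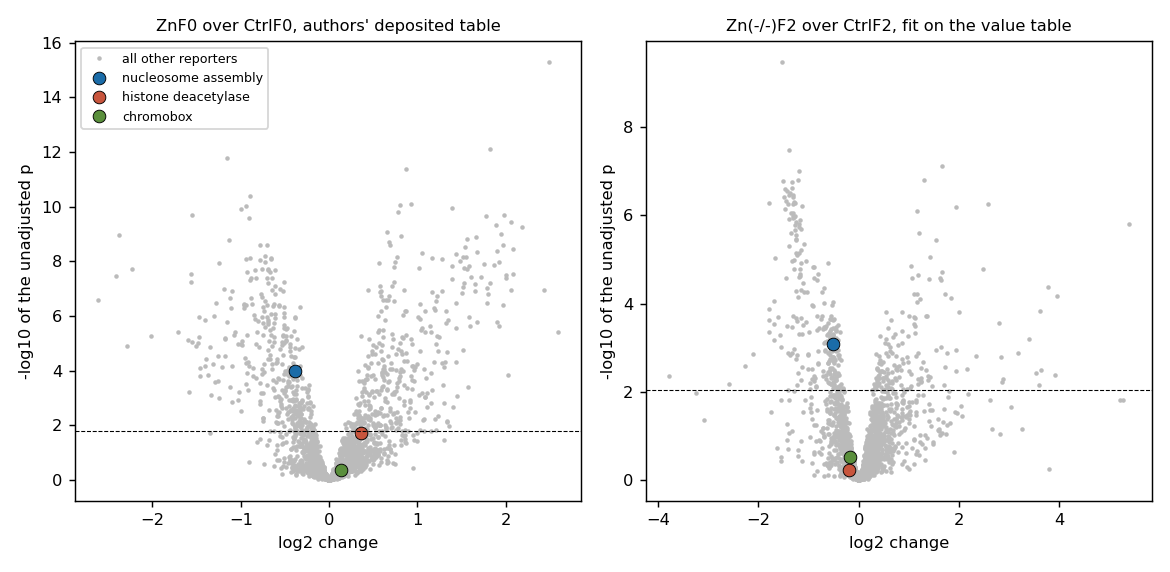
Log2 change (horizontal axis) against -log10 of the unadjusted p (vertical axis) for all reporters in ZnF0 vs CtrlF0 from the authors' deposited table and in Zn(-/-)F2 vs CtrlF2 from the fit on the value table, with the 3 chromatin reporters marked. The dashed line is the largest p that passed after adjustment, and nucleosome assembly lies past it in both, at -0.38 and -0.52, though in the fit on the value table its change in ZnF0 vs CtrlF0 did not pass (adjusted p = 0.0615).

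Few other reporters carry a name with a chromatin or cell division word. Of the other reporters 0 matched a list of chromatin words, and 4 matched a list of cell division words, namely kinase, cyclin b3, cyclin b and tubuline. Cyclins of the B type drive entry into mitosis, and tubulin builds the spindle. The name kinase alone does not tie that reporter to cell division. For ZnF0 vs CtrlF0 the authors' deposited table called 1 of the 4 higher, kinase at 0.37 ± 0.12 (limma adjusted p = 0.0194), and 1 lower, cyclin b3 at -0.32 ± 0.10 (limma adjusted p = 0.0196). Cyclin b stood at -0.15 ± 0.24 and tubuline at -0.079 ± 0.086 in the same authors' deposited table.

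Cyclin b3 was also called lower in the later control generations. In CtrlF1 vs CtrlF0 the authors' deposited table called 2 of the 4 lower, cyclin b3 at -0.29 ± 0.070 (limma adjusted p = 0.00371) and kinase at -0.45 ± 0.15 (limma adjusted p = 0.0394). In CtrlF2 vs CtrlF0 it called 1 lower, cyclin b3 at -0.27 ± 0.087 (limma adjusted p = 0.0483), and for CtrlF1 over CtrlF2 it called 0 of 4.

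In the sample-by-sample fit none of these 4 passed in any of the 9 comparisons (0 calls). In Zn(-/-)F2 vs CtrlF2 cyclin b stood at -0.46 ± 0.16 (limma adjusted p = 0.0613) and cyclin b3 at -0.16 ± 0.11 (limma adjusted p = 0.331), with kinase at 0.035 ± 0.26 and tubuline at 0.18 ± 0.34. The median change of the 4 was -0.061 and that of the 3 chromatin reporters -0.20, beside 0.019 over all reporters.

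Over the 25 samples the named reporter most like nucleosome assembly was cyclin b3, with Pearson r = 0.70 and Spearman rho = 0.63. It ranked 9 among all 2218 reporters compared, most of which have no name, and r was 0.68 without the 2 samples farthest from the median. The next named reporter was ferritine_oud, at r = 0.49. Within the 14 samples in Cy5 the r with cyclin b3 was 0.87, and within the 11 in Cy3 it was 0.41. Between the means of the 9 groups it was 0.84, and over deviations from the group means 0.36. With the F1 signs turned r over all samples was 0.78 for cyclin b3 and 0.64 for ferritine_oud. These r are descriptions, since the samples share the pool and the array design.

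**Figure D5:**
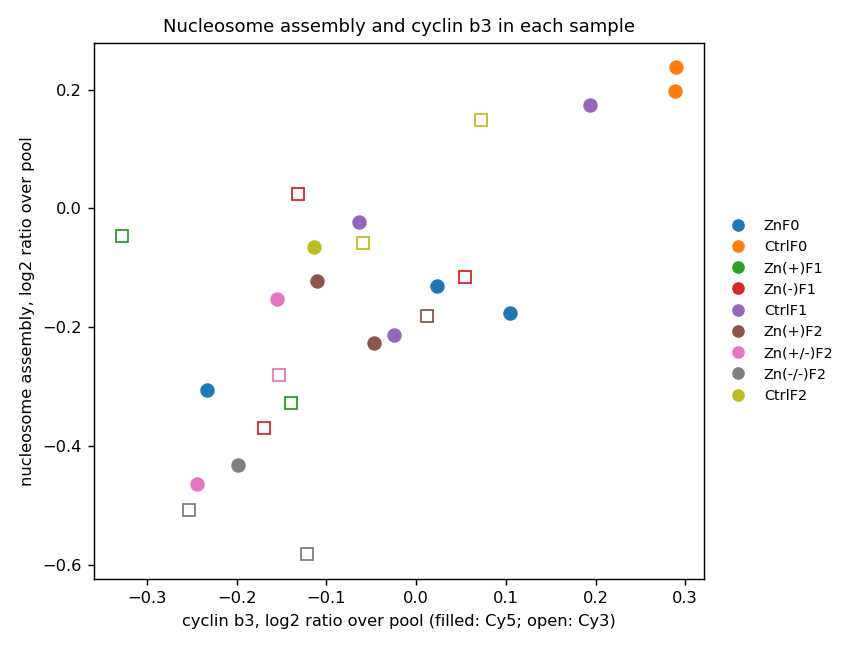
Log2 ratio over the pool of nucleosome assembly (vertical axis) against cyclin b3 (horizontal axis) in each of 25 samples, coloured by group, with filled circles for samples in Cy5 and open squares for samples in Cy3. CtrlF0 lies at the top right (0.24 and 0.20 for nucleosome assembly), and r over all samples is 0.70.

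The chromatin reporters were not like each other. Nucleosome assembly had r = -0.027 with histone deacetylase and r = 0.081 with chromobox, and histone deacetylase had r = -0.11 with chromobox. The named reporters most like histone deacetylase were cyplasin s (EBT_DamaRep_ASP8 B4; n = 24) at r = 0.72 and rho = 0.53, and the ribosomal reporter rib l17 at r = 0.71 and rho = 0.35. Both had r = 0.51 without Zn(+)F2 replicates 1 and 2. For chromobox they were another cyplasin s reporter, EBT_DamaRep_ASP8 A4, at r = 0.41 and rib 40S at r = 0.35. The r with this cyplasin s reporter was 0.047 without Zn(+/-)F2 replicate 2 and ZnF0 replicate 3.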

How the data were processed

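RNA of 27 samples in 9 groups was hybridised on 2-colour cDNA arrays against a common pool. The authors' 4 deposited tables hold log2 changes, average log2 expression, t and log-odds scores and p-values per reporter, made with limma (version not stated), per the submitters' processing notes. The deposited value table holds the authors' log2 ratios per sample. The sources used here do not state the background correction or normalization. Samples were grouped by their labels; 1 title lacks a mark of its group, which was taken from its zinc exposure label. No label says that replicates were separate cultures, so p-values of the fit on the value table measure the spread between these samples, which may be technical. The deposited p-values may also hold spread between values within an array. The number of arrays limits the precision.

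SEs of the deposited changes were taken as change over t. Group differences in the value table followed the deposited changes across reporters, at r = 0.961 (ZnF0 vs CtrlF0), 0.933 (CtrlF1 vs CtrlF0), 0.758 (CtrlF2 vs CtrlF0) and 0.853 (CtrlF1 vs CtrlF2). With Cy3 arrays turned, the r of the comparisons with CtrlF2 were -0.11 and 0.092, so the table already runs as sample over pool, and the planned turning of signs was not done. The lowest r among 105 pairs of Cy5 arrays was -0.32, between ZnF0 replicate 1 and CtrlF2 replicate 3; the dyes are stated, so the direction was kept. limma 3.58.1 in R 4.3.3 (lmFit, eBayes) was fitted to 26 samples with group and dye, with Benjamini-Hochberg adjustment over all reporters that had at least 2 values in each compared group, at a threshold of 0.05. Centring, the merging of CtrlF0 replicates 1 and 3 and the minimum of 2 values were chosen after the files were seen. The fit was tested on simulated data.

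Members, word lists and tests were chosen with earlier results of these data known. Members, the lists of cell division and yolk words and the 2 named reporters of highest r with each member are named whatever their values; 40 of 2261 reporters carry a name. The list of ribosomal words matched 4 reporters, with 1 call in the deposited tables, rib 16s (EBT_DamaRep_ASP8 F4) at 0.37 for CtrlF1 over CtrlF2, and the list for blood cells matched 1, with 0 calls. The alternatives concerned centring, scaling of t, dim reporters, the threshold, signs, the dye term, a replicate block, quantile normalization, array weights and the arrays used.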

Additional observations from a re-analysis of the deposited data

How the results depend on the processing

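In the deposited tables nucleosome assembly lost its calls with t scaled by a robust SD (adjusted p = 0.206 in ZnF0 vs CtrlF0 and 0.387 in CtrlF1 vs CtrlF0) and in the limma fit on the value table, which leave 0 of 3 called. At a threshold of 0.01, 0 were called in CtrlF1 vs CtrlF0. Without the dimmest 25% of reporters 2 were called in ZnF0 vs CtrlF0, as histone deacetylase passed (adjusted p = 0.0445). With the sign of the zinc table turned the changes would be 0.38, -0.36 and -0.13 for nucleosome assembly, histone deacetylase and chromobox. The value table runs in the deposited direction, though, with the same sign for 733 of 736 called reporters. Of all reporters 184, 225, 65 and 178 passed with the scaled t and 240, 79, 50 and 391 in the fit, beside 738, 557, 279 and 691 as deposited, and 128 of the 279 in CtrlF2 vs CtrlF0 passed at 0.01. In ZnF0 vs CtrlF0 the fit called 63 higher and 177 lower, against 374 and 364 as deposited.

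In the fit, leaving out samples moved the chromatin reporters called between 0 and 1 in Zn(-/-)F2 vs CtrlF2, in Zn(+)F2 vs CtrlF2 and in Zn(+)F2 minus Zn(+)F1 (histone deacetylase 1.60, adjusted p = 0.0463, without Zn(+)F2 replicate 3). The call in Zn(-/-)F2 became 0 with these 2 groups alone and with arrays not centred. In ZnF0 vs CtrlF0 1 was called with CtrlF0 replicates 1 and 3 apart, which counts equal values as independent samples. The cause was not tested. Over all alternatives the reporters called ran from 27 to 415 in ZnF0 vs CtrlF0 (240 as reported) and from 96 to 561 in Zn(-/-)F2 vs CtrlF2 (392). They ran from 0 to 227 in CtrlF1 vs CtrlF0 (79), 7 to 199 in CtrlF2 vs CtrlF0 (50) and 121 to 543 in CtrlF1 vs CtrlF2 (391). In the F1 they ran from 28 to 514 in Zn(+)F1 (197) and 87 to 597 in Zn(-)F1 (226), and in the F2 from 1 to 233 in Zn(+)F2 (126) and 0 to 183 in Zn(+/-)F2 (64).

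The following values changed sign. Without the dye term histone deacetylase was -0.16 in Zn(+)F1, -0.12 in Zn(-)F1 and -0.44 in Zn(+)F1 minus ZnF0. With 2 groups alone it was -0.16 and -0.12 in these groups, nucleosome assembly was 0.045 in CtrlF1 vs CtrlF2 and chromobox -0.012 in Zn(+/-)F2. Array weights gave histone deacetylase -0.094 in Zn(+)F1 and -0.35 in Zn(+)F1 minus ZnF0, chromobox -0.16 in Zn(+/-)F2 and nucleosome assembly 0.015 in Zn(+)F2 minus Zn(+)F1. Uncentred, nucleosome assembly was 0.16 in Zn(+)F1 and 0.21 in Zn(-)F1, chromobox -0.0065 in Zn(+/-)F2 and 0.21 in Zn(+)F1 minus ZnF0, and histone deacetylase -0.21 in Zn(+)F2 minus Zn(+)F1. With F1 signs turned nucleosome assembly was 0.20 and 0.17, chromobox -0.050 in Zn(-)F1 and histone deacetylase -0.40 in Zn(+)F2 minus Zn(+)F1. Quantile normalization gave chromobox -0.031 in Zn(+/-)F2, and histone deacetylase -0.091 in Zn(+)F1 minus ZnF0 and -0.0051 in Zn(+)F2 minus ZnF0.

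Without the Zn(+)F2 arrays and Zn(+)F1 replicate 2, or leaving out 1 sample, histone deacetylase ran from -0.17 to 0.41 in Zn(+)F1, from -0.14 to 0.58 in Zn(-)F1 and from -0.45 to 0.36 in Zn(+)F1 minus ZnF0. It ran from -0.0082 to 0.15 in CtrlF1 vs CtrlF0, -0.010 to 1.43 in Zn(+)F2, -0.37 to 0.029 in Zn(-/-)F2, -0.28 to 1.15 in Zn(+)F2 minus ZnF0 and -0.27 to 1.60 in Zn(+)F2 minus Zn(+)F1. Chromobox ran from -0.0078 to 0.28 in ZnF0, -0.0073 to 0.19 in CtrlF1 vs CtrlF0, -0.016 to 0.18 in Zn(+)F1, -0.091 to 0.11 in Zn(+/-)F2 and -0.21 to 0.076 in Zn(+)F1 minus ZnF0. Nucleosome assembly ran from -0.12 to 0.070 in CtrlF1 vs CtrlF2 and -0.11 to 0.083 in Zn(+)F2 minus Zn(+)F1.

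Replicate numbers did not pair the samples, with r of same-numbered deviations from -0.29 to 0.26. A replicate block changed no call of a chromatin reporter (nucleosome assembly -0.52 in Zn(-/-)F2, adjusted p = 0.00929), gave histone deacetylase -0.0083 in Zn(+)F2 minus Zn(+)F1 and moved the reporters called in CtrlF1 vs CtrlF0 from 79 to 43. The limit to reporters with a value on all arrays gave no value, since no chromatin reporter has one on Zn(+)F1 replicate 2.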
